A study of Homo sapiens with 6 samples.

Results

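The mRNA levels of 7 genes of plasminogen activation and blood coagulation were described in the established human pancreatic cancer line BxPC-3. The genes were PLAU, PLAT, PLAUR, SERPINE2, F3, TFPI and TFPI2. They were chosen by symbol, and all 7 were found among the 26255 gene symbols of each library. RNA-seq had been run on 3 groups of 2 libraries. Parent cells received no treatment, NC-1 cells received a negative control RNA, and miR-4711-5p cells received that microRNA. Per the study, the RNA was from 36 h after transfection. All 3 groups are the same cell line with no engineered allele, and the labels do not say whether the libraries of a group came from separate cultures. The p-values below therefore measure only the spread between these libraries.

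Plasminogen activators are serine proteases that cut plasminogen into plasmin, which dissolves fibrin and degrades matrix around cells. Urokinase (PLAU) acts mostly at the cell surface, held by its receptor PLAUR, whereas tissue-type activator (PLAT) acts mostly on fibrin. Serpins such as SERPINB2 and SERPINE2 trap these proteases. Blood coagulation starts when tissue factor (F3) on a cell surface binds factor VII, and TFPI blocks that complex. Pancreatic cancers are known for high tissue factor and for thrombosis in patients.

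The sequences that bear on these genes are shown first. The microRNA is printed with its seed, bases 2 to 8, in capitals. An mRNA is counted as having a seed site when its 3′ UTR holds CTGATGCA (8mer), CTGATGC (7mer-m8) or TGATGCA (7mer-A1). The mature sequence is from RefSeq on GRCh38.p14, at chr1:59733269-59733291 on the minus strand.
hsa-miR-4711-5p: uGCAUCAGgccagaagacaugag

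Among the 7 genes, only TFPI held a seed site in its longest annotated 3′ UTR. The site was a 7mer-m8 at chr2:188329641-188329647 (GRCh37, minus strand), at base 2016 of a 2706-base 3′ UTR, and 2 of the 4 annotated TFPI transcripts with a 3′ UTR carried it. Of the 12040 genes tested below, 10593 had an annotated 3′ UTR under the same symbol, and 18.5% of these held at least 1 site. The TFPI site is shown with the 8mer sites of HMGB1 and MCFD2, a plasminogen-binding protein and a coagulation factor carrier from the partner lists described later. Of the other partner genes named below, CAMK2G, LMAN1, F8 and TMPRSS11E held a 7mer-A1 site, and TMPRSS11E rose with miR-4711-5p. The site letters are in capitals. The HMGB1 site lies at chr13:31035158-31035165 and the MCFD2 site at chr2:47131639-47131646, both on GRCh37 and on the minus strand.
TFPI: tcagggtacagCTGATGCcagctacagaat
MCFD2: tccaggtcataCTGATGCAagaagtgggtt
HMGB1: ttcagttgtctCTGATGCAgcttatacgaa

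Promoters are shown for the 3 genes of the set whose window held the AP-1 letters TGANTCA on either strand. Each window runs from 250 bases before to 50 bases after the RefSeq start on GRCh38.p14, on the minus strand for all 3, with the AP-1 letters in capitals. The F3 window is chr1:94541710-94542009, the PLAUR window chr19:43670120-43670419 and the TFPI2 window chr7:93890704-93891003. The letters stood at -223 and -210 in F3, at -186 in PLAUR and at -87 in TFPI2, counted from the start. Of all 35116 promoter windows, 7.71% held them.
F3: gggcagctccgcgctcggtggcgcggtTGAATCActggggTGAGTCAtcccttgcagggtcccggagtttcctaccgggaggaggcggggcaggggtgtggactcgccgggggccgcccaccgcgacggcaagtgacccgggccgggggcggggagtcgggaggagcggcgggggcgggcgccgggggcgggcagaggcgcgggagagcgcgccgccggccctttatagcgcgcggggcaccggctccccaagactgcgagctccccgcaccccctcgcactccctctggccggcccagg
PLAUR: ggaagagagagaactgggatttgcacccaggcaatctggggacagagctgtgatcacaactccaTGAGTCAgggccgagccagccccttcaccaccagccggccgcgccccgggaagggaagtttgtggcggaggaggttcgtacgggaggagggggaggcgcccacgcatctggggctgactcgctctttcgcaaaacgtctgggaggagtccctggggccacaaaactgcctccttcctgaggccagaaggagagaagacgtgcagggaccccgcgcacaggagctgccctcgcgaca
TFPI2: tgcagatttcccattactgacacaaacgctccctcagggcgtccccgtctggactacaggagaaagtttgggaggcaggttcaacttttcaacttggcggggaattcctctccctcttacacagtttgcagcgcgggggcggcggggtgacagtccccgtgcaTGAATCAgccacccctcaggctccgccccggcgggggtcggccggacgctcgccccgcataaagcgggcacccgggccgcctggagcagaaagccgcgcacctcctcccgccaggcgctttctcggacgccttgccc

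PLAU and SERPINE2 have 2 windows each and TFPI has 1, and none of these held the AP-1 letters. PLAT had no entry. The other motifs were also searched on both strands, and no matches overlapped. The GC box GGGCGG, present in 45.0% of all windows, was found in the windows of F3 (4 times), TFPI2 (2 times), 1 of the PLAU windows (3 times) and both SERPINE2 windows. TATAAA, present on either strand in 11.5% of all windows, was found in F3 alone, at -28. There it lies on the opposite strand, and the printed strand reads TTTATA. The kappa-B motif (11.3% of all windows) was found in TFPI2, and the ETS letters GGAAGT (22.8%) were found in PLAUR and TFPI. The interferon element core GAAANNGAA (8.11%) was in none. These matches are letters in a window and were not measured as binding.

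The deposited values are FPKM, which scale fragments by gene length and library size, so that levels can be compared between genes. They do not hold read numbers, and the depth in reads is unknown. From the steps between the lowest values, the relative depth ran from 0.751 to 1.207 of the first Parent library. A limma fit on log2(FPKM + 1) covered the 12040 genes that averaged 1 FPKM or more, and all 7 genes passed this filter. The 3 comparisons share libraries, so their values are given side by side and are not independent of each other. A gene was called at a Benjamini-Hochberg adjusted p under 0.05. All 5 epithelial markers (4 keratins and EPCAM) were above 1 FPKM, and their summed level was 5756 to 6133 FPKM in Parent, 5138 to 5425 in NC-1 and 5164 to 5219 with miR-4711-5p. Within that sum, mean KRT19 was 1629 FPKM in Parent, 1274 in NC-1 and 901 with miR-4711-5p, and mean KRT18 was 1093, 998 and 1251 FPKM. Summed hepatocyte, platelet and leukocyte markers were at most 0.357, 0.321 and 0.257 FPKM, with PF4, GP9 and TYROBP listed at 0 in all libraries. The 6 endothelial markers summed to 18.0 to 20.2 FPKM in Parent, 23.7 to 24.9 in NC-1 and 23.0 to 23.1 with miR-4711-5p, most of it EGFL7 (16.6 to 22.4 FPKM over the 6 libraries). CDH5 was 0.995 and 0.929 FPKM in Parent, 3.16 and 2.88 in NC-1, and 0.612 and 0.469 with miR-4711-5p, and PECAM1 was at most 0.188 FPKM. The 6 fibroblast markers summed to at most 2.47 FPKM. The part of these marker differences in the results below was not tested.

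With miR-4711-5p, PLAU, PLAUR, PLAT, TFPI and F3 rose against Parent, and no gene of the set was called lower. This was 5 of 7 higher, beside 18.7% of all genes tested, and 0 of 7 lower, beside 24.7%. In either direction the background was 43.4%. Against NC-1, PLAU, PLAUR, PLAT and F3 rose and TFPI2 fell. This was 4 of 7 higher, beside 18.4% of all genes, and 1 of 7 lower, beside 21.2%, with 39.6% in either direction. NC-1 itself differed from Parent in 6 of the 7 genes, 5 higher, beside 12.1% of all genes, and 1 lower, beside 15.1%, with 27.2% in either direction. SERPINE2 was not called in any comparison. With upper-quartile scaling, 55.1% of the calls of all genes against Parent were higher instead of 43.1%, and 63.1% instead of 44.4% between NC-1 and Parent, and the calls of the 7 genes kept their direction. In bulk RNA, a change in the number of cells of a kind and a change in RNA per cell cannot be told apart.

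**Figure D1:**
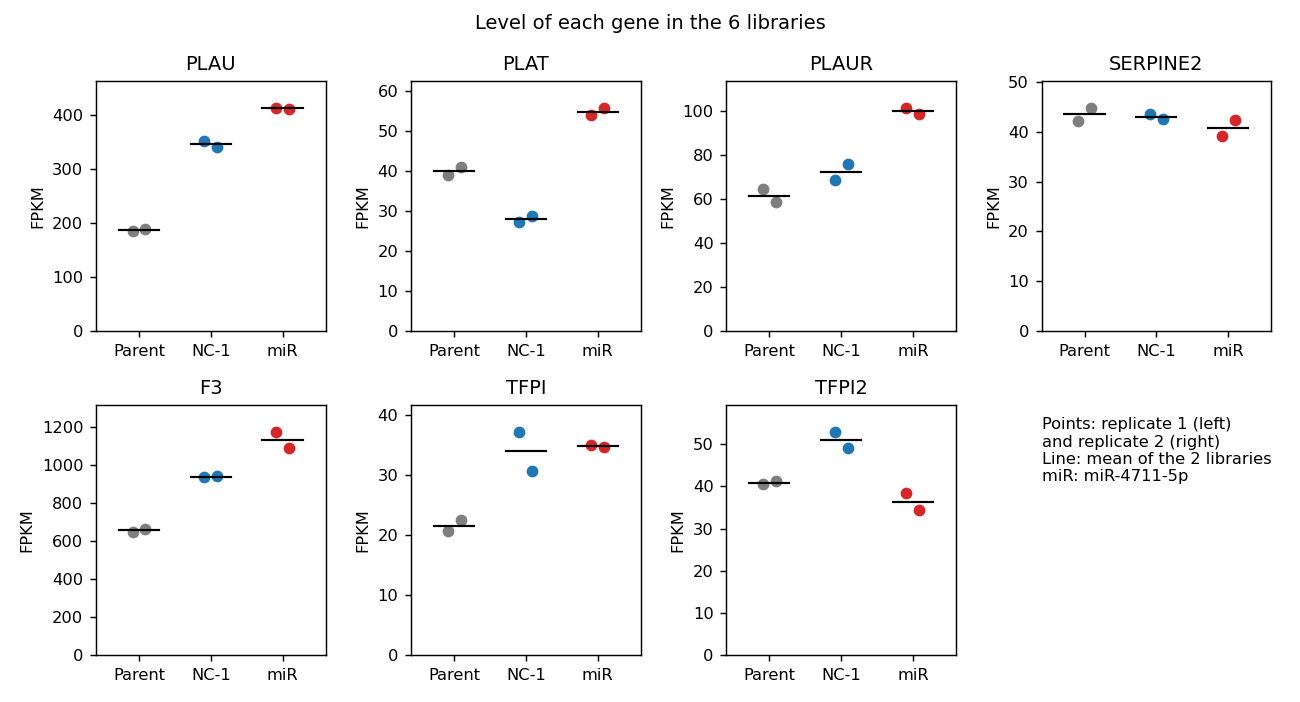
FPKM of each gene (vertical axis, starting at 0) in the 2 Parent, 2 NC-1 and 2 miR-4711-5p libraries, with points for libraries and a line for the mean of each group. PLAU, PLAUR and F3 stand lowest in Parent and highest with miR-4711-5p, PLAT is lowest in NC-1, TFPI2 is highest in NC-1, and SERPINE2 lies between 39.2 and 44.8 FPKM in all 6 libraries.

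PLAU encodes urokinase (chr10:75668935-75677254 on GRCh37, plus strand). Its level was 185 and 188 FPKM in the Parent libraries, 351 and 339 in NC-1, and 412 and 410.2 with miR-4711-5p. The 3 groups did not overlap, and Parent stood far below both transfected groups. The mean ranked 425th among all symbols in Parent, 214th in NC-1 and 172nd with miR-4711-5p. Against Parent, PLAU rose 2.21-fold with miR-4711-5p (log2 difference 1.14, SE 0.04, limma adjusted p = 3.95e-06). NC-1 alone was 1.85-fold above Parent (log2 difference 0.88, limma adjusted p = 8.54e-05), the 82nd highest difference of the 12040 in that comparison. The difference between miR-4711-5p and NC-1 was 1.19-fold (log2 difference 0.25, 95% confidence interval 0.16 to 0.34, limma adjusted p = 0.0022). The antisense gene C10orf55 overlaps PLAU and was listed at 0.506 to 1.62 FPKM.

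PLAT encodes tissue-type plasminogen activator (chr8:42032236-42065227 on GRCh37, minus strand). The Parent libraries had 39.1 and 41.1 FPKM, the NC-1 libraries 27.4 and 28.8, and the miR-4711-5p libraries 53.9 and 55.8. Here the NC-1 libraries were the lowest and the miR-4711-5p libraries the highest, with no overlap. PLAT with miR-4711-5p was 1.95-fold above NC-1 (log2 difference 0.94, SE 0.05, limma adjusted p = 2.23e-05) and 1.37-fold above Parent (0.44, adjusted p = 0.000575). It was the only gene of the set called lower in NC-1 than in Parent, with a log2 difference of -0.50 (limma adjusted p = 0.00151). Thus both activators rose with miR-4711-5p against either control, with PLAU closer to NC-1 and PLAT closer to Parent.

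PLAUR encodes the GPI-anchored receptor that holds urokinase on the cell (chr19:44150247-44174699 on GRCh37, minus strand). Its levels were 64.5 and 58.4 FPKM in Parent, 68.5 and 75.6 in NC-1, and 101 and 98.3 with miR-4711-5p. Both miR-4711-5p libraries were above all 4 control libraries. PLAUR with miR-4711-5p was 1.62-fold above Parent (log2 difference 0.69, SE 0.07, limma adjusted p = 0.000248) and 1.38-fold above NC-1 (0.47, adjusted p = 0.0017). Between NC-1 and Parent the log2 difference was 0.23 (95% confidence interval 0.07 to 0.38, limma adjusted p = 0.0436). That call was lost when any 1 of the 6 libraries was left out, with limma adjusted p between 0.052 and 0.182.

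SERPINE2, protease nexin 1, inhibits thrombin and both plasminogen activators (chr2:224839762-224904035 on GRCh37, minus strand). Its level was 42.1 and 44.8 FPKM in Parent, 43.6 and 42.4 in NC-1, and 39.2 and 42.3 with miR-4711-5p. The Parent libraries overlapped both other groups. The limma log2 difference was -0.09 between miR-4711-5p and Parent (95% confidence interval -0.22 to 0.04, adjusted p = 0.228). It was -0.08 against NC-1 (-0.21 to 0.06) and -0.01 between NC-1 and Parent (-0.15 to 0.12). The last difference became 0 with median-of-ratios and 0.05 with upper-quartile scaling of the libraries.

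F3 encodes tissue factor, the surface receptor that starts the coagulation cascade (chr1:94994729-95007315 on GRCh37, minus strand). It was the most abundant mRNA of the set, with 646 and 667 FPKM in Parent, 938 and 943 in NC-1, and 1178 and 1090.1 with miR-4711-5p. Its mean ranked 125th, 77th and 59th of all symbols in these groups. The groups did not overlap, and the miR-4711-5p libraries differed from each other by more than those of the other groups. F3 with miR-4711-5p was 1.73-fold above Parent (log2 difference 0.79, SE 0.05, limma adjusted p = 2.81e-05). NC-1 was 1.43-fold above Parent (0.52, adjusted p = 0.00105). The difference between miR-4711-5p and NC-1 was 1.21-fold (log2 difference 0.27, 95% confidence interval 0.16 to 0.38, limma adjusted p = 0.00405).

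TFPI encodes the main inhibitor of the tissue factor complex (chr2:188328957-188430487 on GRCh37, minus strand). It had 20.6 and 22.4 FPKM in Parent, 37.3 and 30.7 in NC-1, and 35.0 and 34.7 with miR-4711-5p. Both miR-4711-5p libraries lay between the NC-1 libraries, and Parent was below all of them. TFPI with miR-4711-5p was 1.62-fold above Parent (log2 difference 0.67, SE 0.09, limma adjusted p = 0.0011), and NC-1 was 1.58-fold higher than Parent (0.63, adjusted p = 0.00407). The log2 difference between miR-4711-5p and NC-1 was 0.04, with a 95% confidence interval of -0.17 to 0.25 (limma adjusted p = 0.743), and it became -0.10 without the second NC-1 library. TFPI, the only one of the 7 with a seed site, thus had miR-4711-5p libraries above Parent and within the NC-1 range.

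TFPI2 is a related Kunitz inhibitor that acts on plasmin and other matrix-degrading proteases (chr7:93514708-93520065 on GRCh37, minus strand). Its levels were 40.6 and 41.2 FPKM in Parent, 53.0 and 49.1 in NC-1, and 38.3 and 34.4 with miR-4711-5p. NC-1 was the highest group and miR-4711-5p the lowest, with no overlap. TFPI2 was 1.40-fold lower with miR-4711-5p than in NC-1 (log2 difference -0.48, SE 0.06, limma adjusted p = 0.00127). Against Parent the log2 difference was -0.17 (95% confidence interval -0.32 to -0.01, limma adjusted p = 0.0745), which was not called. NC-1 was 1.25-fold above Parent (0.31, limma adjusted p = 0.0137), and this call was lost without the first Parent library (adjusted p = 0.0804), the second Parent library (0.0557) or the first NC-1 library (0.0792). The gene GNGT1 overlaps TFPI2 on the other strand and was listed at 0.376 to 1.05 FPKM.

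**Figure D2:**
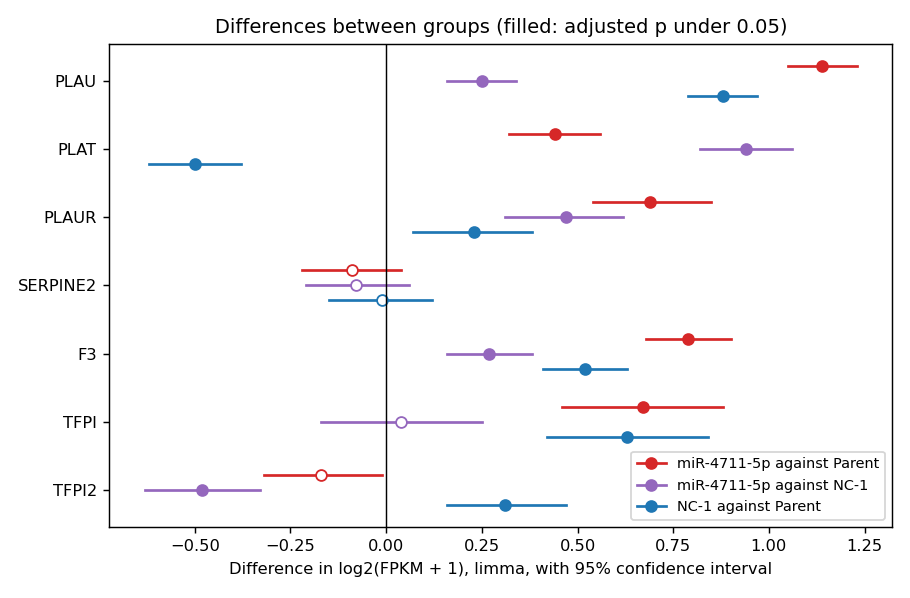
Differences in log2(FPKM + 1) from limma (horizontal axis) for each gene in the 3 comparisons, with 95% confidence intervals as bars and filled points for an adjusted p under 0.05. PLAU has the highest value against Parent (1.14), PLAT the highest against NC-1 (0.94) and the lowest between NC-1 and Parent (-0.50), and all 3 intervals of SERPINE2 cross 0.

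The order of levels moved between groups. In Parent cells it was F3, PLAU, PLAUR, SERPINE2, TFPI2, PLAT and TFPI, with 40.9 and 40.1 FPKM for the neighbours TFPI2 and PLAT, which differed by less than their summed SDs. In NC-1 cells TFPI2 (51.1 ± 2.75 FPKM, SD, n = 2) stood at place 4 and PLAT (28.1 ± 1.004) last. With miR-4711-5p PLAT (54.8 ± 1.30) stood there, and SERPINE2, TFPI2 and TFPI followed at 40.7, 36.4 and 34.8 FPKM, each within the summed SDs of its neighbour. F3, PLAU and PLAUR kept the first 3 places in every group.

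Levels were also added or set against each other within each library, as a description with no test. PLAU and PLAT together were 224 and 229 FPKM in Parent, 378 and 368 in NC-1, and 466 in each miR-4711-5p library. The summed activator mRNA was lowest in Parent and highest with miR-4711-5p, with no overlap.

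The ratio of F3 to TFPI plus TFPI2 was 10.6 and 10.5 in Parent, 10.4 and 11.8 in NC-1, and 16.1 and 15.8 with miR-4711-5p. The NC-1 libraries lay on both sides of Parent, and the miR-4711-5p libraries were above all 4 controls. With miR-4711-5p against Parent, F3 rose 1.73-fold and TFPI alone 1.62-fold, while TFPI2 had a ratio of 0.89. Against NC-1 these values were 1.21, 1.025 and 0.71. The ratio to the sum therefore depends on TFPI2, which acts on plasmin, as well as on TFPI. F3 was not set against TFPI alone. F3 was also set against THBD, thrombomodulin, the thrombin receptor that starts the anticoagulant protein C pathway. This pair was chosen after the values were seen. The F3 to THBD ratio was 11.6 and 13.3 in Parent, 15.6 and 15.2 in NC-1, and 46.6 and 41.9 with miR-4711-5p. The ratio of PLAU to PLAT, also chosen later, was 4.74 and 4.57 in Parent, 12.8 and 11.8 in NC-1, and 7.65 and 7.36 with miR-4711-5p.

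**Figure D3:**
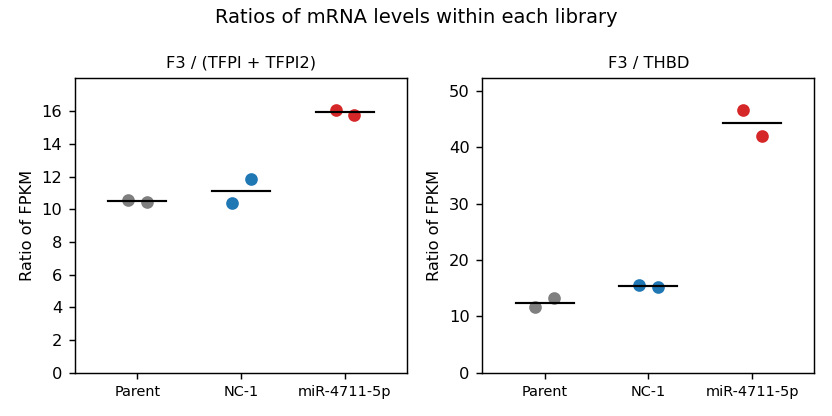
Ratios of FPKM within each library (vertical axes, starting at 0), with points for libraries and a line for the group mean: F3 to TFPI plus TFPI2, and F3 to THBD. The miR-4711-5p libraries are the highest in both panels, at 16.1 and 15.8, and 46.6 and 41.9. The sum of the first ratio includes TFPI2, whose level was lowest with miR-4711-5p.

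Partner genes were read from 5 lists that hold 71 genes, of which 36 passed the filter. With miR-4711-5p, 5 of the 36 rose and 21 fell against Parent, where 18.7% of all genes tested were called higher and 24.7% lower. Against NC-1, 5 rose and 17 fell, beside 18.4% and 21.2% of all genes. The median log2 differences were -0.21 and -0.19, beside -0.01 and 0.00 over all genes tested. Between NC-1 and Parent 5 rose and 5 fell, near the shares of all genes (12.1% and 15.1%), with a median of 0.01 beside -0.01. When each library was left out in turn, 18 of the 26 calls against Parent, 18 of the 22 against NC-1 and 3 of the 10 between NC-1 and Parent held every time. The last 3 were SERPINB2 and MCFD2, which rose, and ENO1, which fell. The genes named below without a remark held their call in this way.

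Of the plasminogen activation partners, 8 of 16 passed the filter, and plasminogen itself (PLG) was at most 0.454 FPKM. Against Parent 0 rose and 3 fell, and against NC-1 0 rose and 3 fell, with medians of -0.15 and -0.19. With 8 genes, these counts are not far from the 24.7% and 21.2% of all genes that were lower. LRP1, the endocytic receptor that clears complexes of proteases with their inhibitors, was 27.1 and 26.8 FPKM in Parent, 29.6 and 29.8 in NC-1, and 11.7 and 11.5 with miR-4711-5p. It was 2.33-fold lower than in Parent (log2 difference -1.15, SE 0.05, limma adjusted p = 5.88e-06) and 2.57-fold lower than in NC-1 (-1.29, adjusted p = 5.74e-06). LRP1 held no seed site in its longest 3′ UTR. SERPINB6 and SERPINB8 fell against Parent (-0.27 and -0.34), and both calls were lost without the second Parent library (limma adjusted p = 0.0777 and 0.102) or the first miR-4711-5p library (0.0928 and 0.117), that of SERPINB6 also without the second (0.0524).

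SERPINB2, a serpin that inhibits urokinase, rose from Parent to NC-1 and was lower with miR-4711-5p than in NC-1. It was 205 and 202 FPKM in Parent, 273 and 251 in NC-1, and 196 and 184 with miR-4711-5p. Its log2 difference was 0.36 between NC-1 and Parent (limma adjusted p = 0.00477), -0.46 from NC-1 to miR-4711-5p (0.000706) and -0.10 from Parent to miR-4711-5p (95% confidence interval -0.23 to 0.03, 0.187). Its NC-1 libraries were the highest, as for TFPI2. SERPINB8 also fell against NC-1 (-0.62, limma adjusted p = 0.00158).

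The next list holds genes of surface plasminogen receptors and of partners of the annexin A2 complex. The mRNA of all 7 tested genes of it fell against Parent, beside 24.7% of all genes, with a median of -0.36. Of these calls, 5 held whichever library was left out. Against NC-1, 1 was higher and 4 were lower (21.2% of all genes were lower), and S100A10 (-0.03, limma adjusted p = 0.64) and PLGRKT (-0.08, 0.341) were not called. Between NC-1 and Parent 3 of the 7 were lower, beside 15.1% of all genes. Of these calls, only that of ENO1 held whichever library was left out. ANXA2, which with S100A10 forms a surface docking complex for plasminogen and PLAT, was 2335 and 2345 FPKM in Parent, 2328 and 2219 in NC-1, and 1798 and 1859.7 with miR-4711-5p. The log2 differences were -0.36 from Parent (limma adjusted p = 0.000556) and -0.31 from NC-1 (0.0011). HMGB1, a chromatin protein that is also secreted, was 217 and 224 FPKM in Parent, 197 and 188 in NC-1, and 77.8 and 76.8 with miR-4711-5p. It fell 2.85-fold against Parent and 2.49-fold against NC-1. AHNAK, a scaffold protein that binds the annexin A2 complex, fell by 0.63 and by 0.65 on the log2 scale, and CAMK2G, a calmodulin-dependent kinase, fell by 0.55 and by 0.60. ENO1, a glycolytic enzyme that binds plasminogen when at the surface, was lower than in Parent (-0.23) but higher than in NC-1 (0.28), and NC-1 was lower than Parent (-0.51). The calls of S100A10 (-0.22) and PLGRKT (-0.21) against Parent were lost with at least 1 library left out, S100A10 without the second Parent (limma adjusted p = 0.0686) or first miR-4711-5p library (0.0861), and PLGRKT without any 1 of 5 libraries (0.0523 to 0.174). HMGB1, ANXA2 and ENO1 have pseudogenes that can share reads with them, and how many reads were shared was not measured.

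The coagulation factor list holds 17 genes, among them the vitamin K enzymes GGCX and VKORC1 and the carriers MCFD2 and LMAN1. Of the 17, 5 passed the filter, and these were the enzymes, the carriers and F8 (1.72 to 2.57 FPKM). The factors that tissue factor acts with were at or near 0, with F7 at most 0.0186 FPKM and F10 at most 0.0838. Against NC-1, MCFD2 and LMAN1, which carry factors V and VIII out of the endoplasmic reticulum, fell by 0.75 and by 0.21, and VKORC1, the vitamin K epoxide reductase, rose by 0.50. MCFD2 was 50.5 and 51.9 FPKM in Parent, 75.8 and 73.7 in NC-1, and 44.6 and 43.7 with miR-4711-5p, so that NC-1 stood apart. The LMAN1 call was lost without any 1 of the NC-1 or miR-4711-5p libraries (limma adjusted p = 0.0782 to 0.155). Against Parent, MCFD2 (-0.21) and VKORC1 (0.27) were called, MCFD2 not without the second miR-4711-5p library (limma adjusted p = 0.0547) and VKORC1 not without the second Parent (0.126) or second miR-4711-5p library (0.157).

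Of the 14 anticoagulants and thrombin receptors, 6 passed the filter. THBD (chr20:23026270-23030309 on GRCh37, minus strand) was 55.7 and 50.1 FPKM in Parent, 60.2 and 62.2 in NC-1, and 25.3 and 26.0 with miR-4711-5p. It was 2.06-fold lower than in Parent (log2 difference -1.01, SE 0.06, limma adjusted p = 2.62e-05) and 2.38-fold lower than in NC-1 (-1.22, adjusted p = 1.4e-05), with no seed site in its longest 3′ UTR. THBD thus fell against both controls, where F3 rose. TFPI, which blocks the tissue factor complex, also rose against Parent (1.62-fold) and was not called against NC-1 (1.025-fold). The coagulant activity of these cells was not measured. PROCR, the endothelial protein C receptor, fell by 0.31 against Parent and ANXA5, which covers phosphatidylserine, fell by 0.34. Against NC-1 the same genes differed by -0.22 and -0.20, and the PROCR call was lost without the first NC-1 library (limma adjusted p = 0.102) or either miR-4711-5p library (0.132 and 0.0731). F2R, the main thrombin receptor, and GAS6 were named after their values were seen, F2R higher than in Parent (4.13 against 2.59 FPKM, log2 difference 0.51, limma adjusted p = 0.00345) and GAS6 lower (-0.28, adjusted p = 0.0127, lost without the first Parent library, 0.0626, or either miR-4711-5p library, 0.0856 and 0.0527). Against NC-1 neither was called, with 0.26 for F2R (limma adjusted p = 0.0542) and -0.02 for GAS6 (0.87), and GAS6 was already lower in NC-1 than in Parent (-0.26, adjusted p = 0.0262, lost without any 1 of the libraries, 0.0503 to 0.125).

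Of 16 membrane serine proteases and protease inhibitors of the Kunitz or WAP type, 10 passed the filter, and 3 rose and 6 fell against Parent, beside 18.7% and 24.7% of all genes, with a median of -0.18. Against NC-1 3 rose and 5 fell, beside 18.4% and 21.2%, with a median of -0.14. The proteases split by direction. TMPRSS4 was 84.1 and 81.9 FPKM in Parent, 78.2 and 81.7 in NC-1, and 43.5 and 46.6 with miR-4711-5p, and it fell by 0.87 against Parent and by 0.81 against NC-1. TMPRSS11E, a low mRNA at 2.003 FPKM in Parent, 3.01 in NC-1 and 5.48 with miR-4711-5p, rose by 1.11 and by 0.69. PRSS8, prostasin, rose by 0.45 against Parent, and its rise of 0.20 against NC-1 was lost without the first NC-1 library (limma adjusted p = 0.131) or either miR-4711-5p library (0.120 and 0.122). Matriptase (ST14), a surface protease known to activate urokinase, differed by -0.05 and -0.07 (95% confidence intervals -0.15 to 0.05 and -0.17 to 0.03).

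The inhibitors of that list also split. SPINT1, an inhibitor of matriptase, was 153 and 155 FPKM in Parent, 158 and 169 in NC-1, and 200.01 and 194 with miR-4711-5p, a rise of 0.35 against Parent and 0.26 against NC-1 on the log2 scale. SPINT2 fell by 0.19 against Parent (limma adjusted p = 0.00591) and was not called against NC-1 (-0.10, 0.0651). SLPI, a WAP-type inhibitor of leukocyte proteases, was 248 and 245 FPKM in Parent, 248 and 237 in NC-1, and 129 and 139 with miR-4711-5p, and fell by 0.87 and by 0.85. APP and APLP2, whose proteins can carry a Kunitz domain, fell by 0.28 and by 0.26 against Parent and by 0.33 and by 0.37 against NC-1. WFDC2 (-0.17 in both comparisons) lost its call against Parent without the first Parent library (limma adjusted p = 0.0958) or either miR-4711-5p library (0.113 and 0.0895), and against NC-1 without the first NC-1 library (0.102) or either miR-4711-5p library (0.113 and 0.095).

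**Figure D4:**
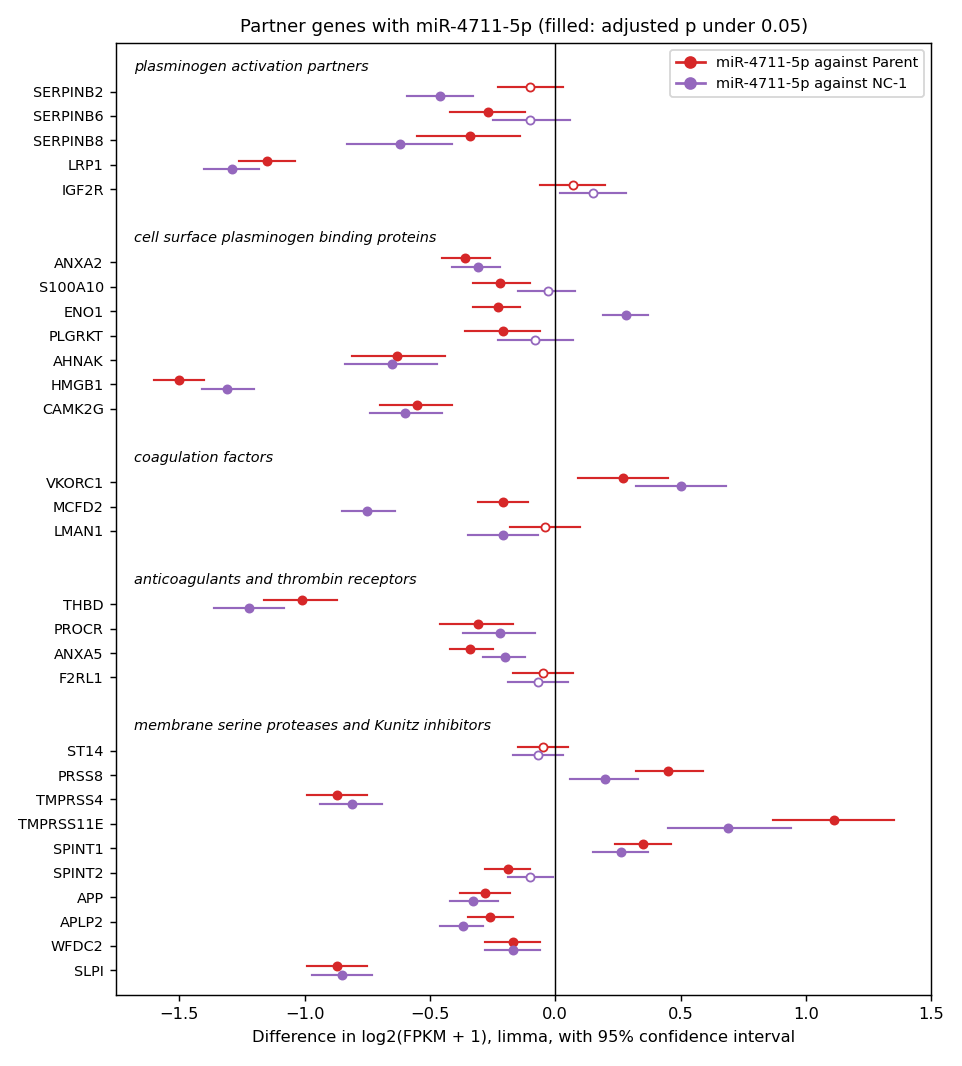
Differences in log2(FPKM + 1) from limma (horizontal axis) for the named partner genes in 5 lists, for miR-4711-5p against Parent and against NC-1, with 95% confidence intervals as bars and filled points for an adjusted p under 0.05. HMGB1 (2.85-fold and 2.49-fold lower), LRP1 (-1.15 and -1.29) and THBD (-1.01 and -1.22) lie furthest to the left, and TMPRSS11E (1.11 and 0.69) furthest to the right.

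Genes of the set were also matched to the genes with the most similar pattern. Likeness was the Euclidean distance over the 6 libraries in log2(FPKM + 1), after subtracting the Parent mean, among 8867 genes that averaged 5 FPKM or more. It is a description over only 6 libraries. F3 was nearest to MIR22HG (distance 0.05), HSPA13 (0.09) and ADGRG6 (0.10). PLAU was nearest to INHBA, a subunit of activin (0.19), which had 4.21 FPKM in Parent, 9.29 in NC-1 and 10.99 with miR-4711-5p. PLAUR was nearest to CLDN4, a tight junction claudin (0.12), with 115, 139 and 190.4 FPKM. PLAT was nearest to DKK1, a secreted Wnt inhibitor (0.18), which also had its lowest level in NC-1, at 98.0, 66.2 and 139.6 FPKM. TFPI was nearest to ANGPTL4, a secreted inhibitor of lipoprotein lipase (0.11), with 3.75, 6.50 and 6.52 FPKM. TFPI2 was nearest to PURB (0.09), with 12.8, 16.0 and 11.5 FPKM.

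The 3′ UTRs were searched for one more feature, chosen after the values were seen. The AU-rich heptamer TATTTAT was present in the longest 3′ UTR of 5 of the 7 genes, which were F3, PLAU, PLAT and TFPI2 with 2 copies each and TFPI with 3. It was present in 37.2% of the tested genes with a 3′ UTR. PLAUR and SERPINE2, whose 3′ UTRs have 362 and 822 bases, held none. The 3′ UTRs of the other genes ran from 931 to 2706 bases, beside a median of 1504 bases over the genes tested. Some partner genes that fell with miR-4711-5p also held the heptamer, such as THBD (5 copies), HMGB1 (2) and MCFD2 (2). Others that fell held none, among them LRP1, AHNAK, CAMK2G, ANXA2, ANXA5, APLP2 and SLPI. TMPRSS11E, which rose, held 1 copy.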

How the data were processed

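RNA-seq of 6 BxPC-3 libraries (Parent, NC-1 and miR-4711-5p, 2 each) was analysed. The labels state TruSeq stranded mRNA libraries and hg19. The submitters' processing notes list TopHat2 2.1.1, Bowtie2 2.3.5.1, SAMtools 1.2, Cuffdiff and Cufflinks 2.2.1, whereas the study's methods name Cuffnorm and other mapper versions. The authors deposited FPKM per gene symbol, scaled by gene length and library size. The annotation, strand option and scaling option are not given in the sources used here. NC-1 was taken as labelled.

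Genes that averaged 1 FPKM or more (12040) were fitted with limma 3.58.1 in R 4.3.3 (lmFit, contrasts.fit, eBayes with trend) on log2(FPKM + 1). All 3 groups entered 1 fit (3 residual degrees of freedom, prior 4.15). Tests were two-sided with Benjamini-Hochberg adjustment over all 12040 genes at 0.05. On this scale changes of low genes are understated. Folds are ratios of mean FPKM. An exact permutation test of 2 against 2 libraries cannot go below 0.333 and was not used. Data were simulated for all 6 libraries (12040 genes, 10 runs) from the Parent means and the spread between libraries. In each run 200 genes, none of low level, were changed in the miR-4711-5p libraries. Against Parent, 93.4% of log2 changes of 0.8 and 58% of changes of 0.4 were found, and 3.38% of calls were false. In the real data 43.4% of genes were called in that comparison, so these shares do not carry over to the real calls. Intervals cover the spread between libraries only.

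The genes, the lists and the tests were chosen with earlier results of these data known. Named partners are list genes that averaged 10 FPKM or more, or below that when called against both controls. Genes nearest to each gene were taken by distance. Results that need certain withheld items are not reported here. Sites were read from GENCODE v44 lifted to GRCh37, in the longest 3′ UTR per symbol, and microRNA and promoter sequences from RefSeq (GRCh38.p14). Symbols without a match (1447 of 12040) stayed out of site shares. Alternatives were another pseudocount, other filters, 2 rescalings, fits of 2 groups, a replicate block, no trend, and leaving out each library. Tables were made with Python 3.11.15, numpy 2.4.6, pandas 2.3.3 and matplotlib 3.10.9.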

Additional observations from a re-analysis of the deposited data

How the results depend on the processing

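The members called numbered 5 against Parent and 5 against NC-1 under every alternative, and 4 to 6 of 7 between NC-1 and Parent. Of 168 log2 differences of the 7 genes under settings that kept all libraries, 162 kept their direction and side of the threshold. The exceptions were PLAUR between NC-1 and Parent (0.23, no longer called with all genes above 0, with only the 2 groups, with the replicate block or without the trend, limma adjusted p = 0.067 to 0.101) and SERPINE2 in the same comparison, which became 0 with median-of-ratios and 0.05 with upper-quartile scaling. Of 126 values with 1 library left out, 114 kept both, with ranges of 0.16 to 0.30 for PLAUR, 0.26 to 0.37 for TFPI2 and -0.06 to 0.03 for SERPINE2 (NC-1 against Parent), and -0.10 to 0.18 for TFPI (miR-4711-5p against NC-1). The causes were not tested.

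Calls over all genes with 1 library left out ranged from 3164 to 5135 (miR-4711-5p against Parent), 2815 to 4639 (against NC-1) and 1355 to 2296 (NC-1 against Parent). They were 1490, 1295 and 501 with a 1.5-fold requirement, and 2165 for NC-1 against Parent with all genes above 0. The 10 list genes called between NC-1 and Parent became 6 with all genes above 0, 5 with only the 2 groups, and 5 to 6 with 1 library left out. Upper-quartile scaling moved higher calls from 43.1% to 55.1% (against Parent) and from 44.4% to 63.1% (NC-1 against Parent). With it, LMAN1 (0.02), F2RL1 (0.01) and ST14 (0.01) against Parent and ANXA2 (0.02), TMPRSS4 (0.01) and SLPI (0.04) between NC-1 and Parent turned sign, none of them called.

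Leaving out 1 library turned uncalled list genes over ranges of -0.11 to 0.03 (LMAN1 against Parent), -0.08 to 0.01 (S100A10) and -0.07 to 0.03 (GAS6) against NC-1, and, between NC-1 and Parent, -0.09 to 0.15 (AHNAK), 0 to 0.04 (F2RL1), -0.02 to 0.05 (ST14), -0.03 to 0.04 (WFDC2) and -0.05 to 0.01 (SLPI). The replicate numbers did not pair the libraries (correlations of 0.061, 0.003 and -0.009), and with the block the calls over all genes numbered 4983, 4564 and 2864 and no other call among the 7 genes changed. Depth in reads is unknown.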
